A study of Mus musculus with 9 samples.

Results

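The tumor necrosis factor (TNF) superfamily pairs secreted or membrane-bound ligands with receptors on the surface of the same or neighbouring cells. In lung neutrophils, 5 of its ligands and 5 of its receptors were described, 10 genes of the 22064 listed in the deposited tables. They were found by gene symbol. The ligands were Tnf, Tnfsf9 (4-1BB ligand), Tnfsf10 (TRAIL), Tnfsf13b (BAFF) and Tnfsf14 (LIGHT). The receptors were Tnfrsf1a and Tnfrsf1b, which bind TNF, Tnfrsf10b, which binds TRAIL, Tnfrsf23, a TRAIL receptor without a death domain, and Fas. All 10 had values in every library and passed the filter on low counts.

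The data were 9 bulk RNA-seq libraries in 3 groups of 3. Ly6Ghigh and Ly6Glow neutrophils came from lungs of female BALB/c mice at the macrometastatic (MACRO) stage, after 4T1-LM3 cells had been injected into the mammary fat pad. 4T1-LM3 is a lung-tropic mouse breast cancer line selected in vivo from 4T1. The third group was Ly6Ghigh neutrophils from normal lung (NL) of female BALB/c mice, with no injection named. The groups were taken from the titles. Per the study's methods the cells were sorted by CD45 and Ly6g, and they give an age range for the mice at purchase but none by group. The labels name no age and no transgene or allele beyond the strain. The labels call the libraries of a group replicate biosamples. Whether a library held 1 mouse or a pool is not given in the sources used here, so the p-values cover the spread between these libraries, which may be technical. In bulk RNA, fewer cells of a type and less RNA per cell cannot be told apart.

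TNF is made by activated myeloid cells as a membrane protein and is released when the protease ADAM17 cuts it. TNFR1, the product of Tnfrsf1a, carries a death domain and can signal to NF-kB or to cell death, whereas TNFR2, the product of Tnfrsf1b, lacks that domain and recruits TRAF proteins. FAS and the TRAIL receptor encoded by Tnfrsf10b are death receptors that recruit FADD and caspase-8. BAFF supports B cell survival, 4-1BB ligand costimulates T cells, and LIGHT binds the herpesvirus entry mediator (Tnfrsf14) and the lymphotoxin beta receptor (Ltbr).

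The 250 bases upstream of an annotated transcription start are shown for 5 of the members with a call in at least 1 comparison that held under each of the 5 scalings tried (RefSeq, GRCm38.p6, the mm10 build that the submitters' processing notes name). An entry was found for 8 of the 10 members, and Tnfrsf10b and Tnfsf9 are named only. Each sequence is written 5′ to 3′ on the strand of the gene. The Tnfrsf23 window belongs to a start inside the annotated gene span and lies wholly within that span, and the end of the Fas window also runs past the annotated start of the gene. Capitals mark a match on either strand to the motif of AP-1, which was searched as TGANTCA, to that of the ETS factors of myeloid cells, searched by the letters GAGGAAG, to an interferon-stimulated response element (ISRE) or to the TATA box of core promoters, for which the search letters were TATAAA. The kB motif and a C/EBP site (TTNCGNAA) were searched as well.
Tnfrsf1b, chr4:145246871-145247120, minus strand: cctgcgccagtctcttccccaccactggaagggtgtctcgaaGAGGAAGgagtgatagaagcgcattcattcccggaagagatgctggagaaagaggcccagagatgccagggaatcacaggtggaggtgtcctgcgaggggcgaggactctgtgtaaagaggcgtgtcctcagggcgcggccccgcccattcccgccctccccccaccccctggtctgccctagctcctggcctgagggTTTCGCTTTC
Fas, chr19:34290409-34290658, plus strand: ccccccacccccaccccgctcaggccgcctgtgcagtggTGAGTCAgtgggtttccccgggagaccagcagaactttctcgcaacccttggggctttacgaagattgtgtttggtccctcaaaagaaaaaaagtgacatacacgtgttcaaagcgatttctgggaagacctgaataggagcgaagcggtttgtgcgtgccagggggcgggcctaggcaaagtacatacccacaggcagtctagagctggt
Tnfrsf23, chr7:143685876-143686125, minus strand: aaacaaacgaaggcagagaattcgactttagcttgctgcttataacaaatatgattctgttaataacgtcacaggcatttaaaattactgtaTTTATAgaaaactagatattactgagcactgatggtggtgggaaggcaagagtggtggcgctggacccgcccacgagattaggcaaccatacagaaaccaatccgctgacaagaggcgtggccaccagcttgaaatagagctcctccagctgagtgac
Tnfsf14, chr17:57194182-57194431, minus strand: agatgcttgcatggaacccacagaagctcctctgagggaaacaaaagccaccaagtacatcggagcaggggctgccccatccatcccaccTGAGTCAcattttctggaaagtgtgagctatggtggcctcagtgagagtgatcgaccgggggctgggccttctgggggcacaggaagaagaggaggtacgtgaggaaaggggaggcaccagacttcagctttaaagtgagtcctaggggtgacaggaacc
Tnfsf10, chr3:27316827-27317076, plus strand: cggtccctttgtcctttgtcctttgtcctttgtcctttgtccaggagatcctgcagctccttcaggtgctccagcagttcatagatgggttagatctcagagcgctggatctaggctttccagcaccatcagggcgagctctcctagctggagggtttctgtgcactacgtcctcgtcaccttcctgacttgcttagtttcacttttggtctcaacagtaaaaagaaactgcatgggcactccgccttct
The Tnfrsf1b window held an ETS match and, in its last 10 bases, an ISRE match. The Fas and Tnfsf14 windows each held an AP-1 match, and the Tnfsf10 window held none of these. The Tnfrsf23 window held a TATA match on the opposite strand, with its first marked base 158 bases before the start. Of 32851 windows of this length, 6.75% held the AP-1 letters, 10.6% the ETS letters, 12.4% the TATA letters, 2.98% the ISRE letters and 2.04% the C/EBP letters. The kB motif was in 3.90% of them and in none of the members' windows. The letters describe these windows only.

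Estimated counts summed to 15267200 to 17841800 per library. The levels below are CPM, counts relative to the TMM-scaled library size, and differences are log2 fold changes from one edgeR quasi-likelihood model of the 9 libraries with Benjamini-Hochberg adjustment over 14108 genes. Calls required both an adjusted p no larger than 0.05 and a log2 fold change beyond 0.58 in either direction. TMM factors were 0.945 to 0.95 in Ly6Ghigh, 0.803 to 0.807 in Ly6Glow and 1.3 to 1.32 in NL libraries, so the scaling bears on every comparison with NL. The median log2 fold change of all tested genes in Ly6Glow over NL was -0.16 with TMM and -0.86 with library totals alone. In Ly6Ghigh over NL it was -0.09 and -0.55, and in Ly6Glow over Ly6Ghigh -0.04 and -0.28. NL replicate 2 stood farther from the other 2 NL libraries (chi-square per gene 5.3 and 4.05) than any other pair in a group (at most 2.5), and leaving it out changed no call among the members. The transcript of the sort marker, Ly6g, did not follow the labels of the MACRO groups: it had 374 ± 10.8 CPM (SD, n = 3) in Ly6Ghigh, 394 ± 9.32 in Ly6Glow and 119 ± 1.4 in NL libraries.

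Per transcript length, the TNF receptors and Tnf were the most abundant members in every group. In Ly6Ghigh neutrophils Tnfrsf1a led with 162 ± 3.54 FPKM (SD, n = 3), ahead of Tnfrsf1b with 123 ± 2.02 and Tnf with 98.7 ± 1.77. In Ly6Glow neutrophils the order of the receptors was the opposite, with Tnfrsf1b at 224 ± 5.07 FPKM and Tnfrsf1a at 198 ± 4.16, followed by Tnf at 108 ± 1.09. In NL neutrophils Tnfrsf1a (224 ± 8.99 FPKM) and Tnfrsf1b (212 ± 9.97) overlapped, and Tnf stood at 126 ± 4.06. The receptors of the TNF ligand were thus the highest members in all 3 groups, but which of them led differed.

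Fas and Tnfsf14 followed in each group. Tnfsf14 (31.5 ± 0.102 FPKM) exceeded Fas (28.03 ± 1.68) in Ly6Ghigh neutrophils, and Fas exceeded Tnfsf14 in Ly6Glow (45.4 ± 0.85 against 36.6 ± 0.802) and NL neutrophils (39.8 ± 1.2 against 15.7 ± 1.08). Tnfrsf10b and Tnfrsf23 overlapped in Ly6Ghigh (8.97 ± 0.237 and 8.52 ± 0.426 FPKM) and in NL neutrophils (9.03 ± 0.774 and 8.62 ± 0.36). In Ly6Glow neutrophils Tnfrsf23, at 14.6 ± 0.833 FPKM, stood above Tnfrsf10b, at 10.4 ± 0.543. The lowest members were Tnfsf13b, Tnfsf10 and Tnfsf9 in both MACRO groups, with 0.67 to 2.28 FPKM on average. In NL neutrophils Tnfsf10 reached 11.9 ± 0.769 FPKM, above both TRAIL receptors.

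**Figure D1:**
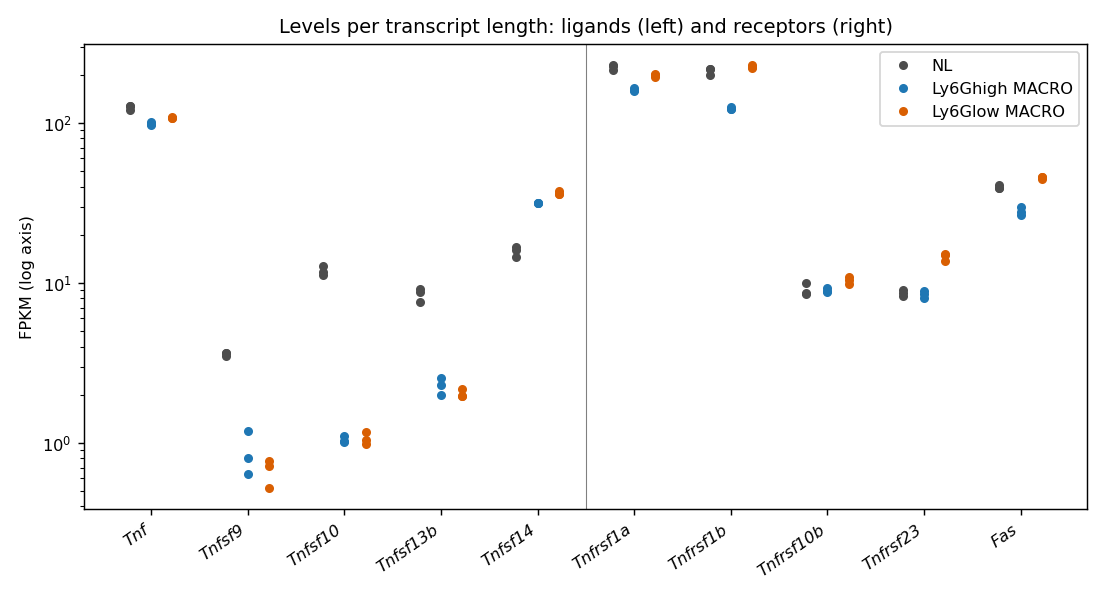
FPKM (fragments per kilobase of transcript, scaled to library size, log axis) of the 10 members, ligands to the left of the line and receptors to the right, with 1 point for each of 3 libraries a group. Tnfrsf1a, Tnfrsf1b and Tnf lie at the top in every group, and Tnfsf9, Tnfsf10 and Tnfsf13b are the 3 members whose NL points lie far above both MACRO groups.

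Between the neutrophil subsets of macrometastatic lung, all 5 receptors were higher in Ly6Glow libraries, 3 of them past the threshold, and no ligand passed it. Tnfrsf1b, Tnfrsf23 and Fas rose in Ly6Glow over Ly6Ghigh neutrophils, and no member fell. Of the 10 members, 3 (3 of 5 receptors and 0 of 5 ligands) were called, beside 25.2% of all tested genes, of which 9.29% were called higher and 15.9% lower. By adjusted p alone 7 members differed, beside 55.8% of all tested genes. The groups did not overlap for 8 members, all 5 receptors and 3 ligands, each higher in Ly6Glow libraries, beside 62.1% of all tested genes (29% higher, 33.1% lower). The median log2 fold change was 0.93 over the 5 receptors and 0.25 over the 5 ligands, against -0.04 over all tested genes. Receptors and ligands were not tested against each other, and their differences overlapped (0.45 for Tnfsf14, 0.44 for Tnfrsf10b). With library totals alone these medians were 0.70 and 0.01 against -0.28, and the same 3 receptors were called.

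Tnfrsf1b had the largest difference. The Ly6Ghigh libraries had 634, 623 and 643 CPM and the Ly6Glow libraries 1342, 1394 and 1329 CPM. The Ly6Glow group thus lay above the other with no overlap, by 2.14-fold (log2 fold change 1.10, SE 0.037, edgeR adjusted p = 2.23e-16). Tnfrsf1a, the other TNF receptor, had 370.4, 353 and 358 CPM in Ly6Ghigh and 518, 529.9 and 506 CPM in Ly6Glow libraries. At 0.52 on the log2 scale (SE 0.037, edgeR adjusted p = 6.7e-11) the difference lay under the threshold, which it passed, at 0.59, with DESeq2 or with DESeq2's size factors. The FPKM ratio of Tnfrsf1b to Tnfrsf1a in a library needs no scaling between libraries. It was 0.741, 0.763 and 0.778 in Ly6Ghigh libraries, 1.12, 1.14 and 1.14 in Ly6Glow libraries and 0.954, 0.941 and 0.95 in NL libraries. The 3 groups did not overlap in this ratio, which was 1.49-fold higher in Ly6Glow than in Ly6Ghigh neutrophils. The exact two-sided permutation p was 0.1, the smallest that 3 libraries against 3 allow, and 0.1125 adjusted over the 9 ratio tests made. These ratios were chosen after the values had been seen.

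Fas had 41.0, 43.2 and 39.9 CPM in Ly6Ghigh libraries and 76.7, 79.5 and 80.7 CPM in Ly6Glow libraries. The Ly6Glow group was 1.91-fold higher without overlap (log2 fold change 0.93, SE 0.05, edgeR adjusted p = 6.74e-13). The transcript of its ligand, Fasl, stood near the detection limit in all groups, with means of 0.83 to 1.29 CPM. With TMM Fasl was called only in Ly6Ghigh over NL neutrophils (log2 fold change -0.64, edgeR adjusted p = 0.036). With library totals alone it was also called lower in Ly6Glow over NL neutrophils.

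Tnfrsf23 had 27.1, 28.6 and 30.3 CPM in Ly6Ghigh libraries and 58.9, 58.5 and 53.2 CPM in Ly6Glow libraries. Every Ly6Glow library lay above every Ly6Ghigh library, by 1.98-fold on average (log2 fold change 0.99, SE 0.06, edgeR adjusted p = 5.35e-12). Tnfrsf10b, which carries the death domain that Tnfrsf23 lacks, had 29.5, 30.4 and 28.9 CPM in Ly6Ghigh and 42.1, 40.9 and 38.0 CPM in Ly6Glow libraries. The groups of Tnfrsf10b did not overlap, and its difference, 0.44 on the log2 scale (SE 0.064, edgeR adjusted p = 3.82e-06), lay under the threshold. The FPKM ratio of Tnfrsf23 to Tnfrsf10b was 0.908, 0.927 and 1.02 in Ly6Ghigh and 1.4, 1.42 and 1.39 in Ly6Glow libraries, a 1.48-fold difference with no overlap (exact two-sided permutation p = 0.1, n = 3 a group).

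Among the ligands, Tnf had 171, 165 and 166 CPM in Ly6Ghigh libraries and 214, 218 and 212 CPM in Ly6Glow libraries. It was higher in Ly6Glow libraries without overlap, and its difference, 0.36 on the log2 scale (SE 0.038, edgeR adjusted p = 3.54e-08), lay under the threshold. Tnfsf14 had 60.7, 60.7 and 60.3 CPM in Ly6Ghigh and 84.7, 81.8 and 81.8 CPM in Ly6Glow libraries, also without overlap and under the threshold (log2 fold change 0.45, SE 0.049, edgeR adjusted p = 7.48e-08). Tnfsf10, Tnfsf13b and Tnfsf9 had log2 fold changes of 0.25 (SE 0.12), 0.06 (SE 0.15) and -0.15 (SE 0.3) with edgeR adjusted p of 0.0909, 0.771 and 0.686. The counts of Tnfsf9 were 10 to 25 per MACRO library. The sign of Tnfsf13b was negative on FPKM or library totals, at -0.11 and -0.18.

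**Figure D2:**
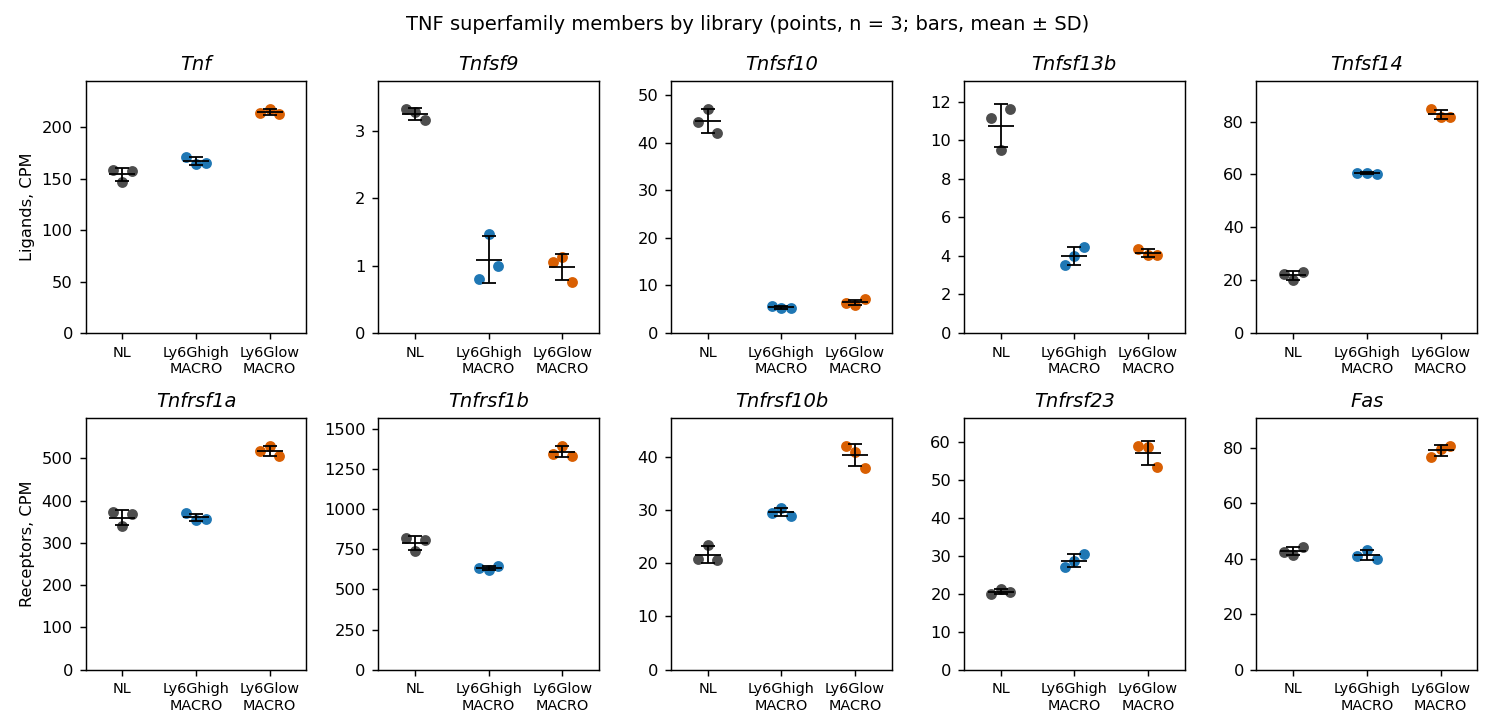
CPM (TMM-scaled, linear axes from 0) of each member, with 1 point per library and the mean ± SD of 3 libraries a group. All 5 receptors are highest in Ly6Glow MACRO neutrophils on this scale, while Tnfsf9, Tnfsf10 and Tnfsf13b are highest in NL neutrophils; on FPKM, Tnf and Tnfrsf1a are highest in NL libraries.

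Against normal lung, 1 ligand rose in neutrophils of macrometastatic lung and 3 fell, in both subsets. Tnfsf14 rose, and Tnfsf10, Tnfsf13b and Tnfsf9 fell, under each of the 5 scalings. In Ly6Ghigh MACRO over NL neutrophils 4 of 10 members were called (1 higher, 3 lower), beside 62.9% of all tested genes, with 26.3% higher and 36.6% lower. By adjusted p alone 8 members differed there, beside 84.6%, and the groups of 8 did not overlap (4 higher, 4 lower), beside 85.2% (40.2% higher, 45% lower). In Ly6Glow MACRO over NL neutrophils 8 of 10 were called (5 higher, 3 lower), beside 69.5% of all tested genes, with 28.7% higher and 40.8% lower. By adjusted p alone all 10 differed there, beside 86.8%, and the groups of all 10 did not overlap (7 higher, 3 lower), beside 86.8% (39.4% higher, 47.5% lower). With library totals alone or on log2(FPKM + 1), 5 members were called in Ly6Glow MACRO over NL neutrophils (2 higher, 3 lower). The comparisons with NL share the NL libraries.

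Tnfsf14, whose protein LIGHT binds the receptors encoded by Tnfrsf14 and Ltbr, had 22.4, 20.03 and 23.3 CPM in NL libraries. Its values in Ly6Ghigh MACRO libraries, given above, were 2.76-fold higher (log2 fold change 1.47, SE 0.055, edgeR adjusted p = 1.62e-16). In Ly6Glow MACRO neutrophils they were 3.78-fold higher than in NL (log2 fold change 1.92, SE 0.054, edgeR adjusted p = 9.63e-19). With library totals alone the log2 fold changes were 1.00 and 1.22. The FPKM ratio of Tnfsf14 to Tnf in a library was 0.313, 0.325 and 0.321 in Ly6Ghigh, 0.349, 0.331 and 0.339 in Ly6Glow and 0.125, 0.12 and 0.13 in NL libraries. Every MACRO library thus lay above every NL library in this ratio, by 2.56-fold in Ly6Ghigh and 2.72-fold in Ly6Glow neutrophils (exact two-sided permutation p = 0.1 for each). Ltbr was itself called higher than in NL neutrophils with TMM, in Ly6Ghigh (log2 fold change 0.67) and Ly6Glow (0.72). With library totals alone Ltbr was called in neither subset. Tnfrsf14 was not called in either, with 70.9 ± 5.06, 85.2 ± 2.22 and 67.9 ± 5.92 CPM in Ly6Ghigh, Ly6Glow and NL libraries.

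Tnfsf10 had 5.72, 5.19 and 5.32 CPM in Ly6Ghigh MACRO libraries, 6.25, 5.95 and 7.09 CPM in Ly6Glow MACRO libraries and 44.4, 47.04 and 42.0 CPM in NL libraries. It was 8.21-fold lower than NL in Ly6Ghigh (log2 fold change -3.04, SE 0.08, edgeR adjusted p = 3.52e-19) and 6.91-fold lower in Ly6Glow neutrophils (-2.79 on the log2 scale, SE 0.082, edgeR adjusted p = 2.01e-18). Tnfsf13b had 3.51, 4.01 and 4.46 CPM in Ly6Ghigh, 4.39, 4.06 and 4.04 CPM in Ly6Glow and 11.1, 9.49 and 11.6 CPM in NL libraries. Its log2 fold changes were -1.43 (SE 0.12, edgeR adjusted p = 2.41e-10) and -1.37 (SE 0.12, edgeR adjusted p = 1.11e-09). Tnfsf9 had 13, 25 and 16 counts in Ly6Ghigh, 13, 15 and 10 counts in Ly6Glow and 74, 72 and 70 counts in NL libraries. Its log2 fold changes were -1.57 (SE 0.21, edgeR adjusted p = 4.84e-07) and -1.72 (SE 0.23, edgeR adjusted p = 4.58e-07). In all 3 ligands the NL libraries lay above both MACRO groups without overlap.

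Markers of other lung cells moved with these ligands. The summed CPM of 9 lung epithelial markers was 1483 to 1626 in NL libraries and 143 to 158 in MACRO libraries, and that of 10 endothelial or fibroblast markers was 1358 to 1458 in NL and 182 to 227 in MACRO libraries. In Ly6Ghigh over NL all 9 and all 10 were called lower, with median log2 fold changes of -3.48 and -3.25. The sum of 10 neutrophil markers was 19715 to 20139 in NL, 73396 to 75222 in Ly6Ghigh and 79799 to 81557 in Ly6Glow libraries, and all 10 were called higher in both MACRO groups. Every neutrophil, epithelial and endothelial or fibroblast marker had a count in every library. The part of such cells in the results against NL was not tested.

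In several other lists 1 or a few genes carried the sum, so counts of called genes are given beside the sums. The 8 dendritic cell markers were all called lower than NL in both MACRO groups (medians -1.17 in Ly6Ghigh and -1.29 in Ly6Glow), and summed to 392 to 463 in NL, 150.4 to 164 in Ly6Ghigh and 95.4 to 104 in Ly6Glow libraries, mostly from H2-Ab1. Of 10 monocyte or macrophage markers, 6 were called lower and 1 higher than NL in each MACRO group (medians -1.35 and -1.46). Their sum, mostly from Csf1r and Cd68, was 812 to 863 in NL and 632 to 692 in MACRO libraries. Of 12 alveolar macrophage markers with values, 9 were called lower in Ly6Ghigh and 11 in Ly6Glow (medians -1.95 and -4.72). Their sum was 2164 to 2207 in NL, 1640 to 1697 in Ly6Ghigh and 355 to 376 in Ly6Glow libraries. Chil3 made up most of it in Ly6Ghigh and Ly6Glow libraries, with means of 1274 and 277 CPM. Of 10 T or NK cell markers tested, 8 and 9 were called lower (medians -1.25 and -1.79), with sums of 86.1 to 88.9 in NL and 36.1 to 54.7 in MACRO libraries. The 5 B cell markers with values were split. Cd74 fell and carried the sum (865 to 1025 in NL, 379 to 393 in Ly6Ghigh and 225 to 240.4 in Ly6Glow libraries), while Ms4a1 was called higher in both MACRO groups and the medians were 0.74 and -0.01. Eosinophil or basophil markers were called higher than NL in 8 and 7 of 9 tested, with sums of 41.2 to 44.7, 132 to 143 and 49.9 to 51.1 in NL, Ly6Ghigh and Ly6Glow libraries.

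Between the MACRO subsets, markers called lower in Ly6Glow than in Ly6Ghigh neutrophils numbered 9 of 12 for alveolar macrophages (median -2.39), 7 of 9 for eosinophils or basophils (-1.07), 5 of 5 for B cells (-0.75) and 5 of 10 for T or NK cells (-0.53). Of 8 dendritic cell markers 1 was called higher and 1 lower (median -0.01), and 4 of 10 neutrophil markers were called higher (median 0.39). Lung epithelial markers were called lower in 2 of 9 (median -0.08), and monocyte or macrophage markers in 2 of 10 (median -0.30). The monocyte or macrophage sum was nevertheless higher, at 659 to 692 in Ly6Glow and 632 to 634 in Ly6Ghigh libraries. The endothelial or fibroblast sum was also higher (214 to 227 against 182 to 192), with 0 of 10 markers called (median 0.08). The part of such cells in the differences of the receptors was not tested either.

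**Figure D3:**
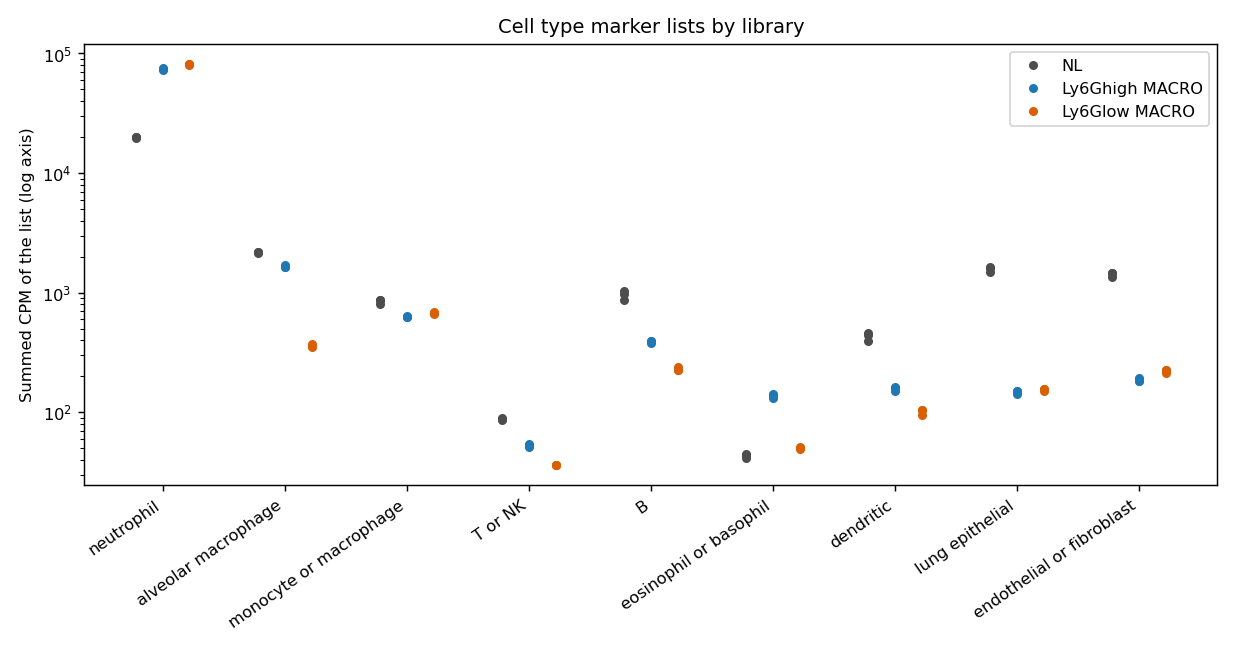
Summed CPM (log axis) of 9 lists of cell type markers, with 1 point per library. The neutrophil sum is lower, and the epithelial and endothelial or fibroblast sums higher, in NL than in both MACRO groups. The alveolar macrophage sum is lowest in Ly6Glow MACRO libraries, and is mostly Chil3 in both MACRO groups. The B cell sum is mostly Cd74 and the dendritic sum mostly H2-Ab1.

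The receptors' comparisons with NL depended on the scaling. With TMM, Tnfrsf1b, Tnfrsf10b, Tnfrsf23 and Fas were called higher in Ly6Glow MACRO than in NL neutrophils, and with library totals alone or on FPKM only Tnfrsf23 was. Tnfrsf23 had 19.9, 21.2 and 20.5 CPM in NL libraries, below every MACRO library on this scale. On FPKM its Ly6Ghigh MACRO and NL libraries overlapped (8.08 to 8.93 and 8.25 to 8.97). Tnfrsf23 was 2.77-fold higher in Ly6Glow than in NL neutrophils (1.47 on the log2 scale, SE 0.06, edgeR adjusted p = 7.22e-16). With library totals alone this log2 fold change was 0.77. Tnfrsf1b had 819.7, 737 and 808 CPM in NL libraries, between the MACRO subsets on this scale. Its log2 fold change over NL was 0.78 in Ly6Glow (SE 0.036, edgeR adjusted p = 6.23e-15) and -0.32 in Ly6Ghigh neutrophils (SE 0.036, edgeR adjusted p = 4.79e-08). With library totals alone these were 0.08 and -0.78, and the decrease in Ly6Ghigh neutrophils then passed the threshold.

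Fas had 42.5, 41.2 and 44.1 CPM in NL libraries, which overlapped the Ly6Ghigh MACRO libraries (log2 fold change -0.04, SE 0.051, edgeR adjusted p = 0.432). Over NL it was 0.89 higher on the log2 scale in Ly6Glow neutrophils (SE 0.048, edgeR adjusted p = 1.18e-13), and 0.19 higher with library totals alone. Tnfrsf10b had 20.7, 23.5 and 20.5 CPM in NL libraries. Its log2 fold change was 0.46 in Ly6Ghigh and 0.90 in Ly6Glow neutrophils, and -0.01 and 0.20 with library totals alone. The ratio of Tnfrsf23 to Tnfrsf10b, in contrast, overlapped between Ly6Ghigh MACRO and NL libraries and was 1.47-fold higher in Ly6Glow MACRO than in NL libraries on FPKM.

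Tnf and Tnfrsf1a changed direction against NL with the scaling. Tnf had 158, 147 and 157 CPM in NL libraries, and its log2 fold changes of 0.12 in Ly6Ghigh and 0.48 in Ly6Glow neutrophils became -0.35 and -0.22 with library totals alone. Tnfrsf1a had 372, 339 and 368 CPM in NL libraries, and its log2 fold changes of 0.00 and 0.53 became -0.46 and -0.18. Neither gene was called against NL with TMM or with library totals. With DESeq2's size factors Tnfrsf1a was called higher in Ly6Glow MACRO than in NL neutrophils, at 0.62, and no direction is given for either gene.

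**Figure D4:**
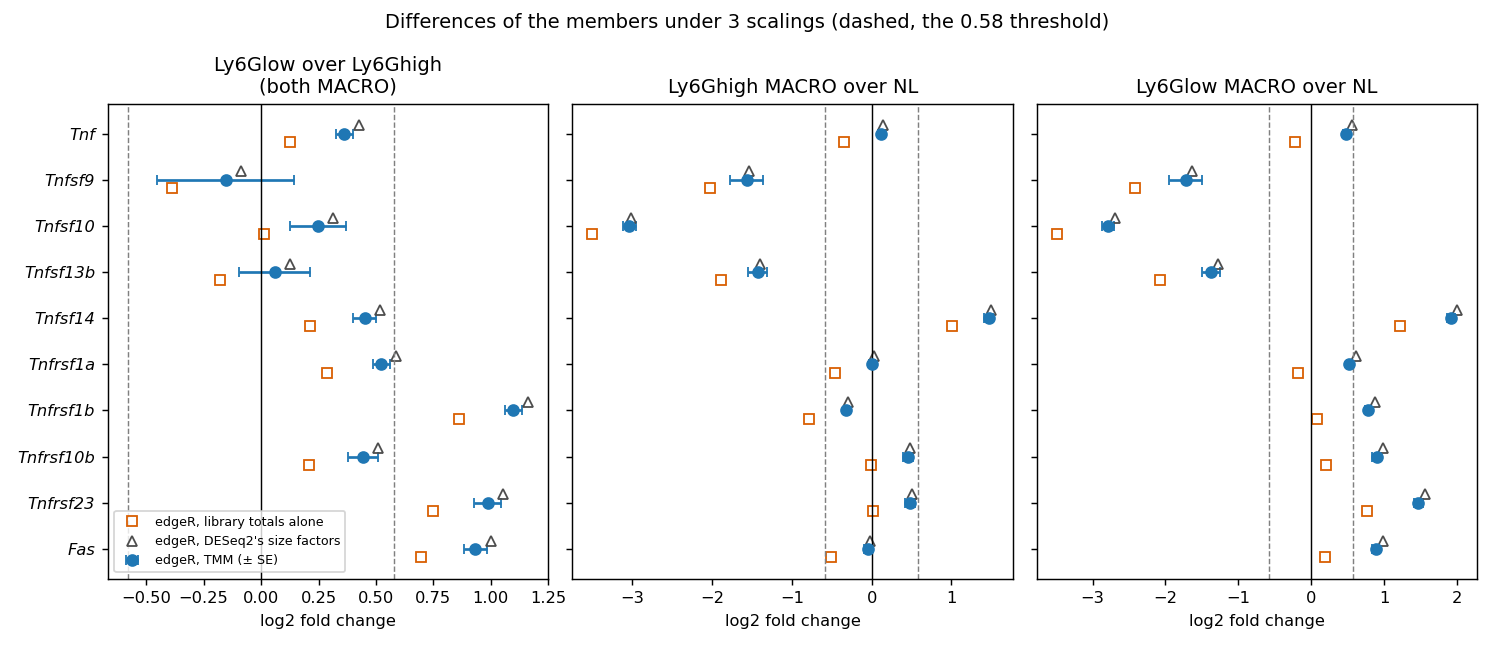
Log2 fold changes of the 10 members in the 3 comparisons, with TMM (filled circles, ± SE of the model of 9 libraries), DESeq2's size factors (triangles) and library totals alone (squares), and dashed lines at the 0.58 threshold. Tnfrsf1b, Tnfrsf23 and Fas pass the line in Ly6Glow over Ly6Ghigh under all 3 scalings, while Tnf and Tnfrsf1a lie on different sides of 0 against NL.

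Several members lie beside other TNF superfamily genes in the mouse genome (RefSeq, GRCm38.p6), and neighbours did not all show like values. Tnf, on chromosome 17 at 35199367 to 35202007, lies between Ltb and Lta, which encode the lymphotoxin subunits, with no protein-coding gene between them. Ltb was 3.61-fold higher in Ly6Ghigh MACRO and 4.07-fold higher in Ly6Glow MACRO than in NL neutrophils (edgeR adjusted p = 3.61e-18 and 7.26e-19), with 111 ± 2.76, 125 ± 5.47 and 30.7 ± 2.9 CPM. Lta stayed at or under 0.768 CPM on average in each group. Tnfsf9, Cd70 and Tnfsf14 lie in this order on the same chromosome, and Cd70 was near 0, at 0.0251 CPM or less on average. Tnfsf9 fell and Tnfsf14 rose against NL.

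Tnfrsf23, on chromosome 7 at 143665807 to 143686436, lies beside its close relatives Tnfrsf22 and Tnfrsf26, so reads shared between these genes leave their counts uncertain. Tnfrsf22 had 6.06 ± 1.34, 9.96 ± 0.987 and 7.15 ± 0.689 CPM in Ly6Ghigh, Ly6Glow and NL libraries, and Tnfrsf26 had 30.5 ± 1.23, 45.4 ± 2.56 and 16.06 ± 0.446 CPM. Both were higher in Ly6Glow than in Ly6Ghigh libraries without overlap. Tnfrsf22 was called there (log2 fold change 0.71, SE 0.14, edgeR adjusted p = 0.000171), though not with library totals alone or on FPKM, and Tnfrsf26 lay just under the threshold at 0.57.

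Of 36 other TNF superfamily ligands and receptors, 31 were tested. In Ly6Glow over Ly6Ghigh neutrophils 1 was called higher and 7 lower (3.23% and 22.6%, beside 9.29% and 15.9% of all tested genes), and the median log2 fold change was -0.20. Tnfrsf21 (death receptor 6) fell from 54.9 ± 0.809 to 31.9 ± 1.81 CPM, and Tnfrsf13b (TACI, which binds BAFF) fell from 39.1 ± 0.347 to 25.3 ± 0.427 CPM, though Tnfrsf13b was not called with DESeq2's size factors. Against NL, 5 were called higher and 17 lower in Ly6Ghigh, and 5 higher and 16 lower in Ly6Glow neutrophils. These were 16.1% and 54.8%, beside 26.3% and 36.6% of all tested genes, and 16.1% and 51.6%, beside 28.7% and 40.8%. With library totals alone the counts became 3 and 19, and 4 and 23. On log2(FPKM + 1) they were 3 and 10, and 4 and 13. Tnfrsf13b was 5.58-fold and 3.6-fold higher than in NL neutrophils, the opposite direction to its ligand Tnfsf13b. Relt, an orphan receptor, was 3.16-fold and 3.26-fold higher. Tnfsf12 (TWEAK) was 4.47-fold and 13.7-fold lower, and Tnfrsf19 was 11.7-fold and 6.6-fold lower. Cd40 fell 4.33-fold in Ly6Ghigh neutrophils, with means of 2.46, 2.00 and 10.6 CPM in Ly6Ghigh, Ly6Glow and NL libraries. Tnfsf13 (APRIL) fell 2.63-fold in Ly6Ghigh and 10.8-fold in Ly6Glow neutrophils.

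Downstream of the receptors, 44 adaptors, kinases, ubiquitin editors and death effectors were tested. In Ly6Glow over Ly6Ghigh neutrophils 6 rose and 1 fell (13.6% and 2.27%, beside 9.29% and 15.9% of all tested genes), and with library totals alone 2 rose and 5 fell. Traf1, an adaptor that binds TNFR2 complexes, rose from 14.1 ± 0.67 to 27.7 ± 0.828 CPM. Birc3 (cIAP2), a ubiquitin ligase of the same complexes, rose from 297 ± 1.88 to 509 ± 4.14 CPM, and lost its call with library totals or on FPKM. Casp6, an effector caspase, rose from 93.8 ± 1.05 to 179 ± 8.99 CPM, and Mlkl, the executor of necroptosis, was called lower at 3.5 ± 0.264 and 1.73 ± 0.559 CPM. Casp8, the initiator caspase of death receptors, was not called in any comparison with TMM (38.1 ± 0.555, 33.7 ± 1.49 and 39.4 ± 0.163 CPM in Ly6Ghigh, Ly6Glow and NL). With library totals alone Casp8 was called lower in Ly6Glow than in NL neutrophils.

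Against NL, 13 of the 44 rose and 5 fell in Ly6Ghigh, and 23 rose and 5 fell in Ly6Glow neutrophils. The share that rose in Ly6Ghigh, 29.5%, was near the 26.3% of all tested genes, and that in Ly6Glow was 52.3%, beside 28.7%. The share that fell was 11.4% in each, beside 36.6% and 40.8%. With library totals the counts became 6 and 7, and 5 and 10. Casp6 was 13.6-fold and 25.9-fold higher in Ly6Ghigh and Ly6Glow than in NL neutrophils, and Bid, which links death receptors to mitochondria, was 4.42-fold and 5.99-fold higher. Mlkl and Nsmaf, an adaptor of TNFR1, fell in both subsets. Traf1 fell 3.15-fold in Ly6Ghigh neutrophils, and averaged 27.7 CPM in Ly6Glow and 44.3 CPM in NL libraries. Fadd, the adaptor of death receptors, fell 1.83-fold in Ly6Ghigh and 2.45-fold in Ly6Glow neutrophils. These 6 genes kept their calls under each of the 5 scalings, Traf1 in Ly6Ghigh over NL and Fadd in Ly6Glow over NL.

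Genes that act on TNF itself were also measured. Of 20 genes for TNF shedding and for control of its mRNA, 6 rose and 1 fell in Ly6Glow over Ly6Ghigh neutrophils (30% and 5%, beside 9.29% and 15.9% of all tested genes), and with library totals 2 rose and 2 fell. Zfp36l1 and Zfp36l2, which belong to the family of tristetraprolin and destabilise AU-rich mRNAs, rose from 619.7 ± 3.58 to 1219 ± 13.6 CPM and from 781 ± 3.32 to 1405 ± 25.4 CPM, under each scaling. Rhbdf2 (iRhom2), a partner of ADAM17, rose from 224 ± 5.53 to 382 ± 6.72 CPM, and lost its call with library totals or on FPKM. Tnf itself lay under the threshold in this comparison. Against NL, 9 rose and 2 fell in Ly6Ghigh and 13 rose and 2 fell in Ly6Glow neutrophils, which became 3 and 4, and 4 and 2, with library totals. With TMM 45% rose and 10% fell, beside 26.3% and 36.6% of all tested genes, and 65% rose and 10% fell, beside 28.7% and 40.8%. Zfp36 (tristetraprolin) was 1.84-fold higher in Ly6Ghigh and 2.62-fold higher in Ly6Glow neutrophils. Its call in Ly6Ghigh was lost with library totals alone, while that in Ly6Glow held under each of the 5 scalings. Frmd8 and Mapk14 were 2.84-fold and 2.44-fold higher in Ly6Ghigh neutrophils. In Ly6Glow libraries these 2 averaged 73.8 and 320 CPM, against 33.5 and 133 CPM in NL libraries. Timp3, an inhibitor of ADAM17 made by stromal cells, was 13.5-fold and 12.3-fold lower, and Rhbdf1 was 7.33-fold and 11.7-fold lower.

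Of 20 genes that TNF is known to induce through NF-kB, 13 rose and 1 fell in Ly6Glow over Ly6Ghigh neutrophils, beside the 9.29% and 15.9% of all tested genes. With library totals 8 rose and 1 fell. The median log2 fold change was 0.79 with TMM and 0.55 with library totals. Ptgs2, the inducible cyclooxygenase, rose from 270.1 ± 4.35 to 658 ± 26.5 CPM, Il1b from 2799 ± 54.3 to 6698 ± 77.2 CPM and Cxcl2, a neutrophil chemokine, from 1664 ± 12.3 to 3859 ± 232 CPM. Bcl2a1d, a member of a family of near-identical copies whose counts are therefore uncertain, fell from 10.7 ± 0.482 to 3.68 ± 0.376 CPM.

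Against NL, 2 genes of the same list were called higher and 10 lower in Ly6Ghigh neutrophils (10% and 50%, beside 26.3% and 36.6% of all tested genes), and 2 and 14 with library totals. In Ly6Glow neutrophils 7 were called higher and 4 lower (35% and 20%, beside 28.7% and 40.8%), and 3 and 9 with library totals. Nfkbia, the NF-kB inhibitor, was 2.99-fold and 5.34-fold higher than in NL, and Tnfaip8 was 3.31-fold and 3.07-fold higher. Cxcl10 was 8.33-fold and 6.52-fold lower and Icam1 4.58-fold and 3.99-fold lower, and Bcl2a1d fell in both subsets. Ier3 rose 2.67-fold in Ly6Glow neutrophils.

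**Figure D5:**
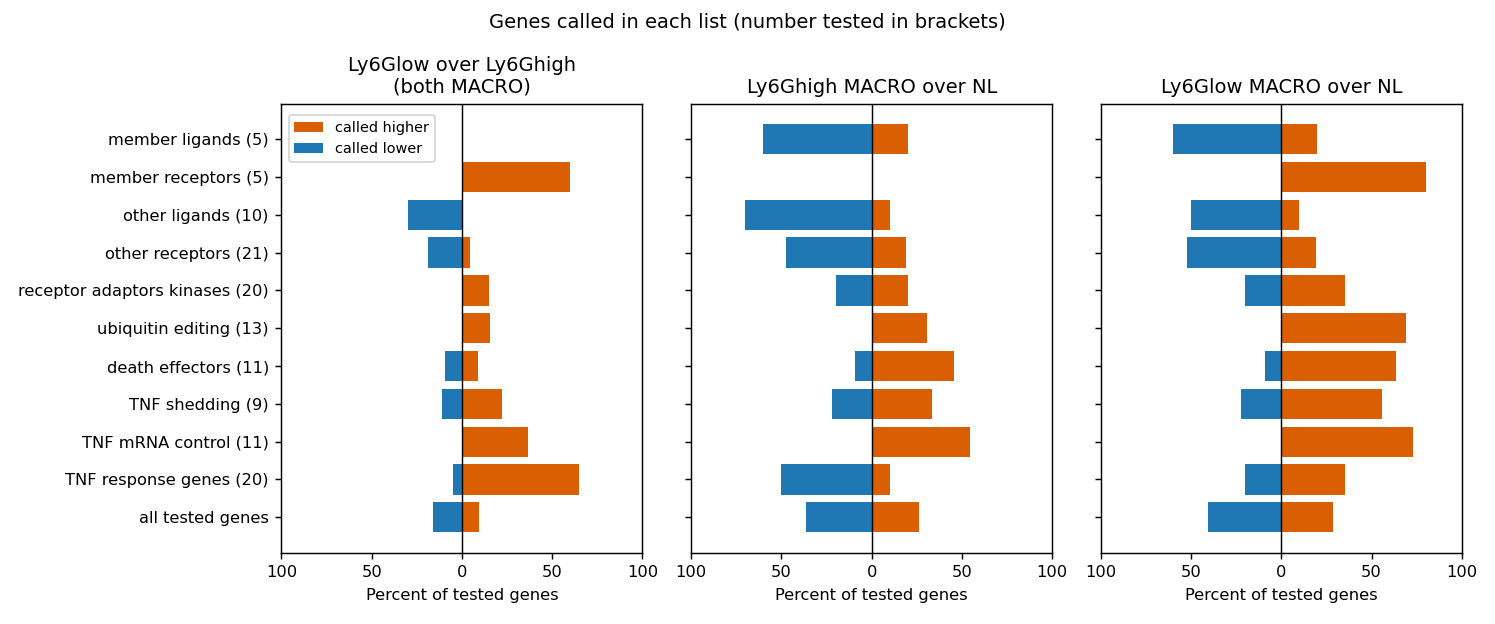
Percent of the tested genes of each list called higher (right) or lower (left) with TMM in the 3 comparisons, with all tested genes in the bottom row. In Ly6Glow over Ly6Ghigh, 60% of the 5 member receptors and 65% of the 20 TNF response genes were called higher, beside 9.29% of all tested genes. Of the 21 other receptors tested, 4.76% were called higher and 19.0% lower there. With library totals alone the TNF response genes called higher numbered 8.

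Among 7398 genes with a mean of at least 10 CPM, those most like each member in log2 CPM over the 9 libraries were listed as a description, since 3 groups set most of any such correlation. Tnfsf10 was most like Postn (Pearson's r = 0.9995) and Fermt2 (0.9992), genes of matrix and adhesion in stromal cells. Tnfsf14 was most like Galnt6 (0.9996), and Tnfrsf1b was most like Map2k3 (0.9986), a kinase upstream of p38. Tnfrsf23 was most like Ier3 (0.9974), Fas like Rnf24 (0.9962) and Tnf like the clock gene Per1 (0.9975). The other members' closest genes were Oas3 for Tnfrsf1a, Prxl2c for Tnfrsf10b, Adamts9 for Tnfsf13b and Nav2 for Tnfsf9, with r of 0.988 to 0.9965. These r values share the library scaling.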

How the data were processed

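Bulk RNA-seq tables of 9 libraries were used. The estimated counts deposited by the authors are unnormalized reads per gene (37.9% whole numbers), rounded here. The FPKM values deposited by the authors are scaled for transcript length and library size. The aligner and counter are not given in the sources used here. Of 22064 genes listed, 3739 were blank and 14108 passed filterByExpr by group. Counts were fitted with edgeR 4.0.16 in R 4.3.3 (TMM, quasi-likelihood F test, Benjamini-Hochberg). Alternatives were DESeq2 1.42.0, DESeq2's size factors, upper-quartile normalization, no filter, no fold change threshold or 1, limma 3.58.1 on log2(FPKM + 1) or + 0.1, the former also on genes reaching FPKM 1 in at least 3 libraries, the 6 libraries of a comparison alone, omission of single replicates and a replicate block. Library totals alone and ratios of members were added after seeing the data.

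Members and lists, written from general knowledge, were chosen with earlier results of these data known, so no list is independent support. Besides the members, 3 rises and 3 falls were named per comparison and group of lists, among called genes without overlap and with at least 5 CPM in the higher group; other genes were chosen after their values were seen. Of 218 listed symbols, 4 were absent. Columns of gene type were not used. 1 item is not reported here. Gene positions and upstream windows are RefSeq's.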

Additional observations from a re-analysis of the deposited data

How the results depend on the processing

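The counts of called members depended on the fold threshold and the scaling. With no fold threshold 8 members were called in Ly6Ghigh over NL and 7 in Ly6Glow over Ly6Ghigh, and with a threshold of 1 the latter was 1 (Tnfrsf1b). In Ly6Glow over NL 5 were called with a threshold of 1, with each of the 3 FPKM settings and with library totals alone. Leaving out each replicate gave 3 to 3, 4 to 4 and 8 to 8 called members in Ly6Glow over Ly6Ghigh, Ly6Ghigh over NL and Ly6Glow over NL. Of all tested genes, 3560 were called in Ly6Glow over Ly6Ghigh, 7868 without a threshold, 1305 with a threshold of 1 and 2240 on log2(FPKM + 1) (2222 with its filter).

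Several log2 fold changes against NL turned negative. On library totals alone, log2(FPKM + 0.1) and log2(FPKM + 1) with or without its filter, Ly6Ghigh over NL gave -0.35, -0.35 and -0.35 for Tnf, -0.46, -0.46 and -0.46 for Tnfrsf1a and -0.0093, -0.0065 and -0.0061 for Tnfrsf10b. Tnfrsf23 gave -0.016 and -0.015 on the FPKM settings. Ly6Glow over NL gave -0.22, -0.22 and -0.22 for Tnf and -0.18, -0.17 and -0.17 for Tnfrsf1a. Upper-quartile normalization gave -0.077 for Tnf and -0.19 for Tnfrsf1a in Ly6Ghigh over NL. In Ly6Glow over Ly6Ghigh, Tnfsf13b gave -0.18, -0.15 and -0.11 in the same order. The median of all tested genes moved with these settings, as given for the library totals. Leaving out 1 replicate each gave ranges of -0.033 to 0.025 for Tnfrsf1a in Ly6Ghigh over NL, -0.028 to 0.14 for Tnfsf13b and -0.34 to 0.13 for Tnfsf9 in Ly6Glow over Ly6Ghigh, none of them called. The ratio of Tnfrsf23 to Tnfrsf10b in Ly6Ghigh over NL was 1.02-fold on counts, 0.993-fold on FPKM and 0.977 to 1.04 with a replicate left out. The cause was not tested.

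A replicate block changed the standing of 0 of 39 results (3, 4 and 8 members called). Deviations of libraries with the same number correlated at -0.068 to 0.077, so the numbers were not taken as pairs. Depth was lowest for Tnfsf9, at 10 to 25 counts per MACRO library.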
